A study of Danio rerio with 6 samples.

Results

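The genes described here encode proteins that the vertebrate liver secretes into the blood plasma. They are the iron carrier transferrin (tfa), both vitronectin genes of the zebrafish (vtna and vtnb), a pair of genes of the alpha-1-antitrypsin family (serpina1 and serpina1l), the 3 chains of fibrinogen (fga, fgb and fgg), the thyroid hormone carrier transthyretin (ttr) and the heme scavenger hemopexin (hpxa). The members were chosen by symbol, and all 10 were found among the 35197 rows of the count table, each on 1 row. Of these, 9 passed the filter on low counts, as did 20229 rows in all, and ttr did not.

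RNA was sequenced from whole, untreated zebrafish embryos at 48 hours post-fertilization, in 3 libraries of wildtype genotype and 3 libraries of embryos homozygous for a mutation of dnajc21, a co-chaperone gene of large ribosomal subunit assembly. Each library was made from a pool of 30 to 50 embryos, so no value belongs to a single animal. The wildtype columns of the table are named casper, a strain that lacks most pigment. The labels give neither the lesion nor the background strain of the mutants. If that strain is not casper, its effect cannot be told apart from that of the mutation in any comparison here. Nor do the labels say whether the pools of a group are separate clutches. The p-values therefore reflect spread between libraries only, part of which may be technical.

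Hepatocytes load plasma proteins into the secretory pathway soon after the liver bud forms, and these transcripts are among the most abundant of the mature liver. In zebrafish embryos the yolk syncytial layer, a nucleated layer of cytoplasm around the yolk, also transcribes plasma protein genes, transferrin among them, before the liver takes over. Transferrin delivers iron to cells through its receptor, hemopexin binds free heme, fibrinogen is the precursor of the fibrin clot, vitronectin links integrins to the matrix and stabilizes the inhibitor of plasminogen activators, and alpha-1-antitrypsin inhibits serine proteases. In whole embryos, fewer cells of a type and less RNA per cell cannot be told apart.

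The libraries held 8600951 to 11798543 counts. The dnajc21 transcript was lower in mutants, at 18 ± 1.48 against 26.1 ± 4.27 CPM (counts scaled to a common library size; SD, n = 3 each; edgeR adjusted p = 0.00492). The 3 wildtype libraries were spread along the second principal component of all genes, with replicate 2 at -32.7 and replicate 1 at 38.7. The mutants kept within -5.19 to 3.99. Wildtype replicate 1 was also the shallowest library. Fold changes of members that turn on it are given below with and without it.

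The labelled tissue is the whole embryo, and the defining marker of differentiated hepatocytes was nearly absent from it. The liver fatty acid-binding protein gene fabp10a had 0 counts in each wildtype library and 1, 2 and 1 counts in mutant replicates 1 to 3. Where none is read, counting error alone leaves room for 3 counts, which is 0.253 to 0.351 CPM in these libraries. Of 9 hepatocyte markers, 6 passed the filter, and their summed level was 383 to 422 CPM in wildtype and 377 to 395 CPM in mutant libraries. Most of it came from the ceruloplasmin gene cp (148 ± 9.85 and 135 ± 5.34 CPM), itih2 and ambp, while ahsg1 and tdo2a had at most 4 counts in any library. Of the 6 tested, cps1 and fah, for enzymes of the urea cycle and of tyrosine breakdown, were called higher in mutants (log2 fold changes 0.78 and 0.41; edgeR adjusted p = 0.00427 and 0.0309) and ambp lower (-0.30; 0.0146). Markers of the yolk syncytial layer summed to 5738 to 6480 CPM in wildtype and 6021 to 6712 CPM in mutants, although mxtx2 was at 0 in all libraries. Most of this sum came from apobb.1 (4705 ± 392 and 5185 ± 313 CPM), which was not called (edgeR adjusted p = 0.161). Of the 5 tested, 0 were called higher and 3 lower, namely mttp, apoa4b.1 and pla2g12b, against 5.87% of all genes called lower. Since CPM do not take transcript length into account, the sums of different tissues are not compared. The data do not show in which of these tissues a member was transcribed.

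Of the 9 members tested, 3 were lower in mutants and 0 higher. The 3 were vtnb, serpina1l and tfa, which make up 33.3% of the members tested, against 5.87% of all genes called lower (edgeR quasi-likelihood test, adjusted p under 0.05; 5.85% were called higher and 11.7% in either direction). At an unadjusted edgeR p under 0.05 there were 6 members, all lower in mutants. The share of all genes under this looser threshold was not counted, so this number has no background beside it. DESeq2 and limma-voom also called 3 lower and 0 higher. The libraries of the groups did not overlap in 6 members, all with the mutants below, or 66.7%, against 15.3% of all genes that lay below in this way and 15.1% above. The median log2 fold change of the 9 members, mutant over wildtype, was -0.17, and that of all genes tested was -0.006. The members were picked with results of these data known, so these shares describe them and do not test them.

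**Figure D1:**
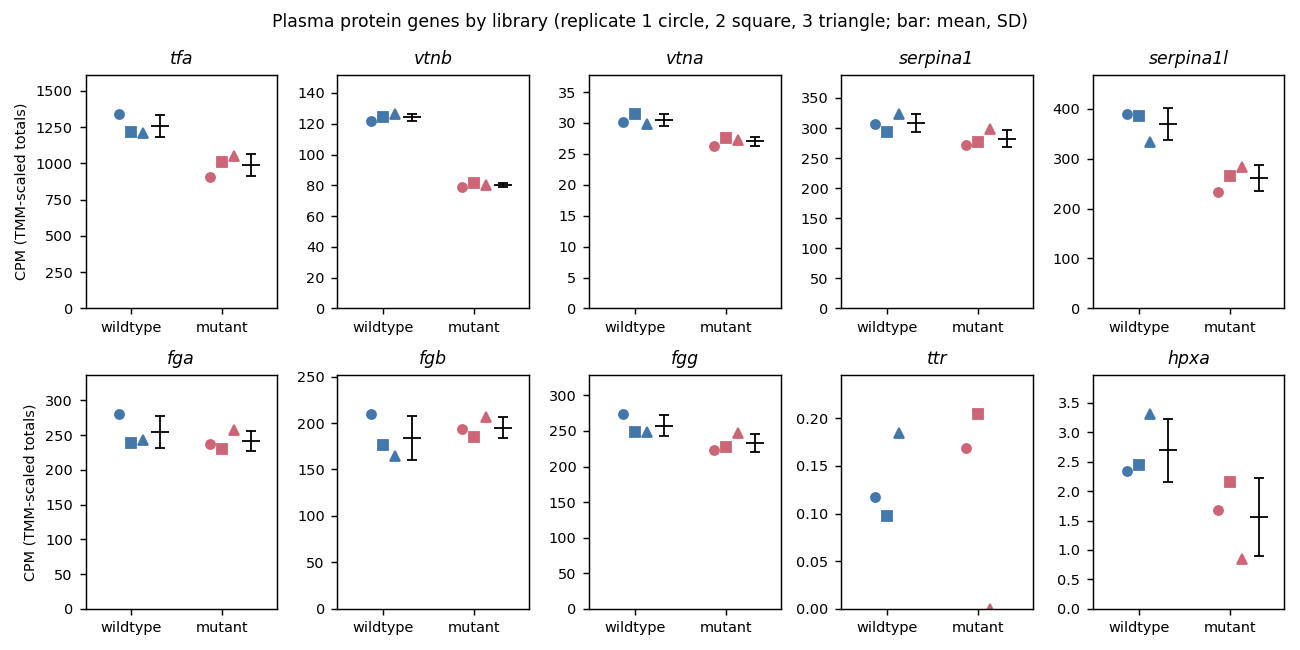
Level of each of the 10 plasma protein genes in CPM on TMM-scaled totals, with 1 point per library (wildtype blue, mutant red; circle, square and triangle for replicates 1, 2 and 3) and the group mean with its SD as a bar; no bar is drawn for ttr. For vtnb the mutant libraries lie at 79.0 to 81.4 CPM and the wildtype libraries at 122 to 127 CPM, while for fga and fgb the groups overlap, and each vertical axis starts at 0.

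Transferrin was the member with the most counts. The tfa row (LL0000030193) measured 1343, 1217 and 1209 CPM in wildtype replicates 1 to 3 and 904, 1011 and 1049 CPM in mutant replicates 1 to 3. Every mutant library lay below every wildtype library, and the groups were separated by more than their own width. The mean fell from 1256 ± 75.1 to 988 ± 75.4 CPM (SD, n = 3), to 78.6% of wildtype, a log2 fold change of -0.35 (SE 0.07, 95% interval -0.48 to -0.21, edgeR adjusted p = 0.00183). Wildtype replicate 1 was the highest library, and without it the log2 fold change was -0.29 (adjusted p = 0.00326). All counts of tfa were whole numbers, so none of its reads were split with another row.

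Of the vitronectin genes, vtnb was called lower and vtna was not. The vtnb row (LL0000031941) measured 122, 124 and 127 CPM in wildtype and 79.0, 81.4 and 80.2 CPM in mutants. These were the tightest replicates of any member, with a coefficient of variation of 1.84% in wildtype and 1.47% in mutants. The mean fell from 124 ± 2.29 to 80.2 ± 1.18 CPM, a log2 fold change of -0.63 (SE 0.06, 95% interval -0.77 to -0.50, edgeR adjusted p = 3.81e-06). The paralog vtna (LL0000031940) measured 30.2, 31.5 and 29.8 CPM in wildtype and 26.3, 27.6 and 27.2 CPM in mutants. The groups of vtna did not overlap either, but the difference was small and did not pass the test (log2 fold change -0.17, SE 0.08, 95% interval -0.35 to -0.00022, edgeR adjusted p = 0.195).

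Within each library, the log2 ratio of vtnb to vtna counts was 2.02, 1.98 and 2.09 in wildtype and 1.59, 1.56 and 1.56 in mutants. The mutants were lower by 0.46 on average with no overlap between the groups, so the counts of vtnb relative to vtna were lower in every mutant library. The direction follows from the log2 fold changes already given, -0.63 for vtnb and -0.17 for vtna. The exact permutation test over libraries gave a two-sided p = 0.1, the smallest that 3 against 3 allows (adjusted p = 0.12 over 6 ratios). The row of vtna has non-whole counts in all 6 libraries, as happens when reads are divided between rows, and neither a single partner row nor a pair of them was found; vtnb has whole counts throughout and shares none. The sum of both vitronectin rows fell by 0.53 on the log2 scale (SE 0.06, edgeR adjusted p = 2.41e-05). The genes stand on different chromosomes in the RefSeq table of assembly GRCz12tu.

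The alpha-1-antitrypsin genes were read as a pair. Their rows have non-whole counts in all 6 libraries, and the values of both add up to whole numbers in every library, which marks reads that the authors' counting divided between them. They are direct neighbours in the RefSeq table, with 0 genes between them. Together they measured 697, 680 and 657 CPM in wildtype and 504, 542 and 582 CPM in mutants. The groups of this sum did not overlap, and it fell from 678 ± 20.3 to 543 ± 38.7 CPM, a log2 fold change of -0.32 (SE 0.06, edgeR adjusted p = 0.00274).

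The drop lay mostly on serpina1l as the reads were divided. Its row (LL0000024498) measured 390, 386 and 333 CPM in wildtype and 232, 265 and 284 CPM in mutants, a log2 fold change of -0.51 (SE 0.08, 95% interval -0.68 to -0.33, edgeR adjusted p = 0.00063). The serpina1 row (LL0000024496) measured 307, 294 and 324 CPM in wildtype and 272, 277 and 298 CPM in mutants, where mutant replicate 3 lay above wildtype replicate 2 (log2 fold change -0.13, SE 0.07, 95% interval -0.27 to 0.009, edgeR adjusted p = 0.229). The log2 ratio of serpina1l to serpina1 was 0.35, 0.39 and 0.04 in wildtype and -0.23, -0.06 and -0.07 in mutants. The ratio was lower in mutants by 0.38 without overlap, although wildtype replicate 3 came close to the mutants. Its direction follows from the log2 fold changes already given, -0.51 for serpina1l and -0.13 for serpina1. The exact permutation test gave a two-sided p = 0.1, the smallest that 3 against 3 allows (adjusted p = 0.12). The sum does not depend on how the reads were divided, whereas the values of the single rows do. Sequence differences between the groups, if their strains differ, can move such a division and were not tested.

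**Figure D2:**
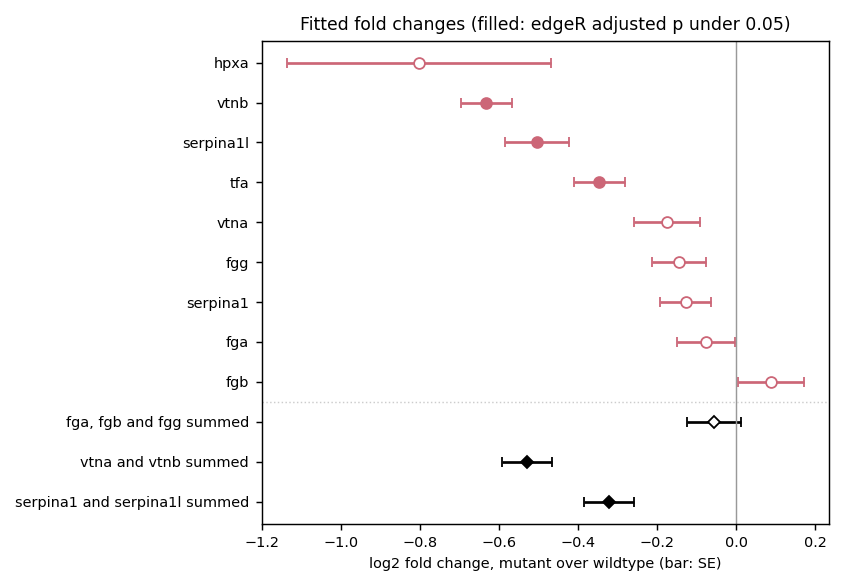
Log2 fold change, mutant over wildtype, of the 9 members tested (circles) and of 3 sums of rows (diamonds), with its standard error as a bar; filled symbols have an edgeR adjusted p under 0.05. The filled circles are vtnb at -0.63, serpina1l at -0.51 and tfa at -0.35, the fibrinogen chains lie between -0.14 and 0.09, and hpxa has the widest error.

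The fibrinogen chains did not pass the test. Fibrinogen is assembled from equal numbers of alpha, beta and gamma chains, encoded by fga, fgb and fgg. The fga row (LL0000010271) measured 281, 239 and 243 CPM in wildtype and 237, 230 and 257 CPM in mutants, and the groups overlapped (log2 fold change -0.08, SE 0.07, 95% interval -0.23 to 0.08, edgeR adjusted p = 0.567). The fgb row (LL0000010272) measured 210, 176 and 164 CPM in wildtype and 193, 185 and 207 CPM in mutants. It was the only member with a positive log2 fold change (0.09, SE 0.08, 95% interval -0.09 to 0.26, edgeR adjusted p = 0.564). The fgg row (LL0000010324) measured 274, 248 and 249 CPM in wildtype and 223, 228 and 247 CPM in mutants, where the highest mutant library lay just under the lowest wildtype library (log2 fold change -0.14, SE 0.07, 95% interval -0.29 to -0.003, edgeR adjusted p = 0.187).

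Summed over the 3 chains, fibrinogen measured 695 ± 60.4 CPM in wildtype and 669 ± 37.2 CPM in mutants, a log2 fold change of -0.06 (SE 0.07, edgeR adjusted p = 0.668). The sum was formed after the data had been seen. It measured 765, 664 and 657 CPM in wildtype replicates 1 to 3 and 653, 642 and 711 CPM in mutant replicates 1 to 3. With 1 library left out, its log2 fold change ranged from -0.10 to 0.02 (edgeR adjusted p of 0.525 to 0.909). Wildtype replicate 1 was the highest wildtype library for all 3 chains, and without it the log2 fold changes were 0.003 for fga, 0.20 for fgb and -0.09 for fgg (edgeR adjusted p = 0.98, 0.0567 and 0.363). The summed erythrocyte markers ranged from 1992 to 4779 CPM over the wildtype libraries and from 3282 to 3501 CPM over the mutants; their part in the fibrinogen values was not tested. In the RefSeq table fga and fgb are separated by 1 gene, and fgg stands on the same chromosome with 359 genes between it and fga. Reads of fga were shared with LOC100536670 in 2 libraries, and adding that row moved the value to -0.08 (adjusted p = 0.551).

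The balance of the chains was read within each library. The log2 ratio of fgb to fgg counts was -0.38, -0.50 and -0.60 in wildtype and -0.21, -0.30 and -0.26 in mutants. All mutants lay above all wildtype libraries, by 0.24 on average. The log2 ratio of fgb to fga was -0.42, -0.44 and -0.57 in wildtype and -0.29, -0.32 and -0.31 in mutants, a difference of 0.17 without overlap. For fgg over fga the groups overlapped, with means of 0.02 in wildtype and -0.05 in mutants. The exact permutation p was 0.1 for both ratios with fgb, which 3 against 3 cannot go below, and 0.2 for fgg over fga (two-sided; adjusted p = 0.12 and 0.2). These ratios were chosen after the values were seen and do not depend on the scaling of the libraries.

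Transferrin was also set against fga, the only fibrinogen chain used for this ratio. The direction of the ratio follows from the log2 fold changes already given, -0.35 for tfa and -0.08 for fga. The log2 ratio of tfa to fga was 2.26, 2.35 and 2.31 in wildtype and 1.93, 2.14 and 2.03 in mutants. It was lower in mutants by 0.27 with no overlap (exact permutation p = 0.1, two-sided; adjusted p = 0.12).

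**Figure D3:**
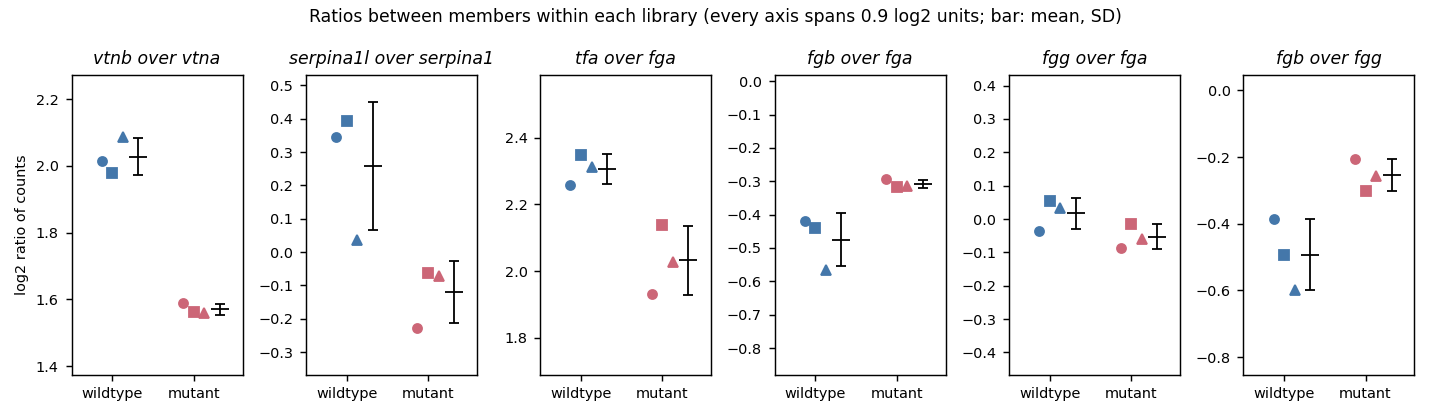
Log2 ratios of counts between members within each library, 1 point per library, with the mean and SD of each group; every vertical axis spans the same number of log2 units. The mutants lie below the wildtype libraries for vtnb over vtna, serpina1l over serpina1 and tfa over fga, above them for both ratios with fgb, and overlap them for fgg over fga.

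The remaining members were read little or hardly at all. The hpxa row (LL0000012310) had 20, 25 and 36 counts in wildtype and 20, 21 and 9 counts in mutants, or 2.34, 2.44 and 3.32 CPM against 1.69, 2.15 and 0.842 CPM. The groups did not overlap, but mutant replicate 2 lay close to wildtype replicate 1. The log2 fold change of -0.80 was the most negative of the members and its error the largest (SE 0.33, 95% interval -1.51 to -0.10, edgeR adjusted p = 0.134). The ttr row (LL0000031339) had 1, 1 and 2 counts in wildtype and 2, 2 and 0 counts in mutants. Reads of ttr were thus present in every wildtype library and in mutant replicates 1 and 2. They were too few to pass the filter, and no fold is given.

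The members were also compared over libraries of the same group. In mutants, replicate 3 was the highest library for 6 of 9 members and replicate 1 the lowest for 6 of 9. In wildtype, replicate 1 was the highest for 5 of 9, namely tfa, serpina1l and the 3 fibrinogen chains, and the lowest for vtnb and hpxa. The vitronectin genes deviated least, by at most 0.05 from their group mean on the log2 scale, and fgb deviated by up to 0.20. Summed over the 9 members, the level was 2959, 2719 and 2683 CPM in wildtype and 2168, 2306 and 2450 CPM in mutants. The sum was thus lower in every mutant library, at 82.8% of wildtype on average, and as counts are not per length, tfa and other heavily read rows weigh most in it.

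**Figure D4:**
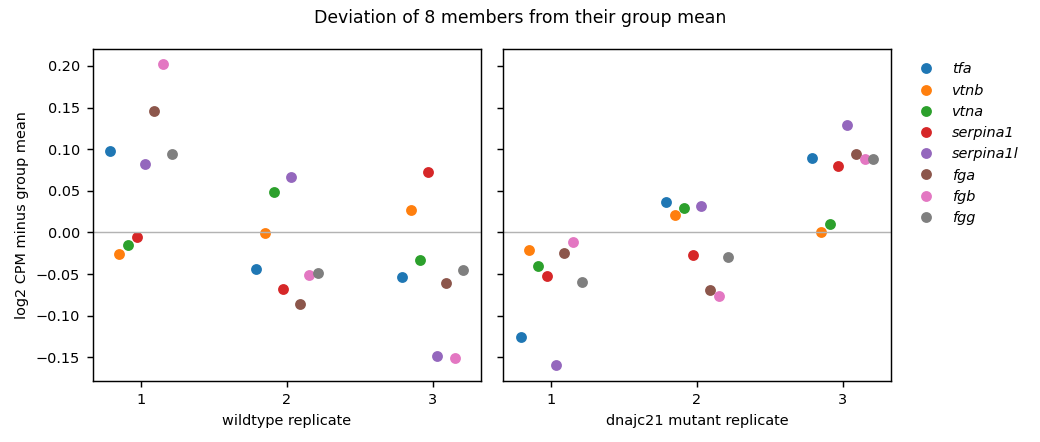
Deviation of log2 CPM from the group mean for 8 members in each wildtype library (left) and each mutant library (right); hpxa, whose deviations reach -0.78, and ttr are left out. The fibrinogen chains and tfa lie above 0 in wildtype replicate 1 and in mutant replicate 3, while vtnb stays close to 0 throughout.

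Across all 6 libraries, the mean profile of the members was compared with those of 6710 other genes of similar spread and at least 5 CPM. Among the closest were palmda, for palmdelphin, cops5, for a subunit of the COP9 signalosome, cpsf2, for a subunit of the cleavage and polyadenylation complex and tdg.1, for a thymine DNA glycosylase. Their root mean square difference from the profile was 0.023 to 0.025 on the log2 scale. Among members, which themselves make up the profile, it was least for tfa (0.07) and largest for hpxa (0.51). These 4 genes were picked for likeness to a profile that was lower in mutants. Their own fall therefore follows from the choice and is no separate result. The log2 fold changes were -0.32 for palmda, -0.33 for cops5, -0.27 for cpsf2 and -0.29 for tdg.1.

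Other genes of blood clotting moved in both directions. Of 28 tested, 5 were higher and 3 lower, with a median log2 fold change of 0.10. For this list and those that follow, the shares over all genes tested were 5.85% called higher and 5.87% called lower. The coagulation factor IX gene f9b fell from 23.9 ± 3.15 to 14.5 ± 1.28 CPM (edgeR adjusted p = 0.000484, with a log2 fold change of -0.72 and an SE of 0.12) and the protein Z gene prozb from 5.74 ± 1.22 to 3.23 ± 0.231 CPM. The tissue plasminogen activator gene plat, whose product starts fibrin breakdown, rose from 6.17 ± 0.896 to 10.99 ± 1.27 CPM, and f13a1b, for the transglutaminase subunit that crosslinks fibrin, from 8.42 ± 2.06 to 13.5 ± 0.128 CPM. The higher genes numbered 2 when wildtype replicate 2, mutant replicate 1 or mutant replicate 2 was left out and 3 when mutant replicate 3 was, and the lower genes 1 when any 1 mutant was. The prozb call ended without wildtype replicate 1 (adjusted p = 0.055) or mutant replicates 1, 2 or 3 (0.055, 0.0816 and 0.0565).

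Complement genes, most of which the liver also secretes, had 3 higher and 7 lower of 28 tested, with a median log2 fold change of -0.04. The gene of factor D, cfd, the protease that activates factor B, fell from 13.5 ± 3.01 to 4.98 ± 0.987 CPM (edgeR adjusted p = 7.82e-05, with a log2 fold change of -1.42 and an SE of 0.18). The gene of properdin, cfp, which stabilizes the alternative convertase, rose from 30.6 ± 2.05 to 48.3 ± 2.49 CPM. Its row shared reads, and with the partner row added the log2 fold change was 0.57. The factor H gene cfh fell by 0.58 on the log2 scale, but its reads were shared with cfhl1 and cfhl2. The sum of these 3 rows did not pass (log2 fold change -0.15, edgeR adjusted p = 0.199). The cfhl2 row is itself among the 3 higher (log2 fold change 1.44), so reads of a shared pool are counted in both directions. Of all complement rows called, only cfd had whole counts in every library, so the values of the other rows can depend on how reads were divided. Partner rows were sought for cfh, cfp and cfhl4 only. The sums with cfp and with cfhl4 still passed (edgeR adjusted p = 4.17e-05 and 0.0028). The factor H-like cfhl4 fell by 0.36 on the log2 scale, and by 0.34 with its 2 partner rows. The lower genes numbered 4 without mutant replicate 1.

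Of 26 further genes of plasma carriers, inhibitors and hormones, 2 were higher and 9 lower, with a median of -0.10. The paraoxonase gene pon1, whose product rides on high-density lipoprotein, fell from 32.1 ± 1.69 to 16.5 ± 1.32 CPM (edgeR adjusted p = 3.81e-06, with a log2 fold change of -0.96 and an SE of 0.10), and by 0.60 on the log2 scale when the row that shares its reads was added. The angiotensinogen gene agt fell from 9.92 ± 4.15 to 2.51 ± 0.0972 CPM. The genes rbp2a (-1.24) and rbp2b (-0.88) also fell and are counted among the 9 lower. They encode retinol-binding proteins that stay inside cells and are no plasma proteins. The fetuin gene fetub, named after its values were seen, fell from 678 ± 33.7 to 544 ± 46.4 CPM on a row with non-whole counts. The higher genes numbered 0 when any 1 library but wildtype replicate 1 was left out.

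Markers of neighbouring tissues were set beside these values. Of 22 genes of the yolk syncytial layer and of lipoprotein export, 1 was higher and 5 lower (median -0.05). The microsomal transfer protein gene mttp, needed to load lipoproteins, fell from 42.3 ± 6.09 to 30.2 ± 1.24 CPM, apoa4b.1, for apolipoprotein A-IV, fell by 0.38 on the log2 scale (0.21 when summed with apoa4b.2, with which it shares reads) and pla2g12b by 0.22, while the sulfate transporter gene slc26a1 rose by 0.77. The lower genes of this list numbered 2 without wildtype replicate 1 or any 1 mutant and 3 without wildtype replicate 3, the higher 2 without wildtype replicate 1 or 3, and pla2g12b passed in the absence of wildtype replicate 2 alone (otherwise edgeR adjusted p of 0.0554 to 0.197). Of 9 intestinal genes, 0 were higher and 2 lower by edgeR. At an unadjusted p under 0.05 there were 5, a threshold for which the share of all genes was not counted. Of these 5, ada2a, named after its values were seen, was higher (log2 fold change 0.41). The called genes were fabp2 and agr2. The intestinal fatty acid-binding protein gene fabp2 fell from 209 ± 5.998 to 148 ± 7.04 CPM. The gene agr2, for a disulfide isomerase of secretory cells, fell from 84.8 ± 6.23 to 64.6 ± 1.18 CPM. The 5 intestinal markers together measured 206 to 220 CPM in wildtype and 143 to 154 CPM in mutants, nearly all of it fabp2. The others were read little, with wildtype means of 1.37 CPM for vil1 and 1.88 CPM for cdx1b. Those of slc15a1b and anpepb were 0.352 and 0.363 CPM, and neither passed the filter. The sum is thus a value of fabp2 and does not measure the tissue. Of 4 exocrine pancreas genes tested, the carboxypeptidase gene cpa5 rose by 0.56 (edgeR adjusted p = 0.0358) and 0 were lower. The cpa5 call was kept with wildtype replicate 1 left out and lost with each of the others (0.0731 to 0.154). The 11 pancreas markers together measured 7.64 to 11.7 CPM in wildtype and 11.2 to 11.8 CPM in mutants. Most of this sum was cpa5 (6.31 ± 1.38 and 9.19 ± 0.719 CPM). The only other marker tested, prss1, was at 1.42 and 0.694 CPM on average and did not pass (edgeR adjusted p = 0.268). The sum is thus mainly a value of cpa5 and shows no rise of pancreas genes. The 4 skin markers measured 18809 to 20166 CPM in wildtype and 20360 to 21578 CPM in mutants. Most of this sum was krt4 (12169 ± 708 and 13399 ± 558 CPM), whose groups overlapped. The log2 fold changes of the markers ran from -0.06 for icn to 0.16 for krt5, and 0 were called. The part of any of these tissues in the values of the plasma protein genes was not tested.

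Genes of hepatocyte metabolism were called in both directions. Of 34 tested, 7 were higher and 4 lower, with a median of -0.03. The gluconeogenic gene pck1 rose from 20.4 ± 4.95 to 59.09 ± 7.56 CPM (edgeR adjusted p = 0.00229, with a log2 fold change of 1.55 and an SE of 0.18), the bile acid transporter gene slc10a1 from 6.57 ± 0.405 to 11.6 ± 0.384 CPM and tat, for tyrosine aminotransferase, from 7.28 ± 0.613 to 12.4 ± 0.969 CPM. The creatine synthesis gene gatm fell from 785 ± 54.9 to 587 ± 23.1 CPM (log2 fold change -0.42). The higher genes numbered 4 without mutant replicate 2, and the lower 2 when wildtype replicate 3 or mutant replicate 2 was left out and 1 when mutant replicate 1 was.

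Of 38 genes of liver transcription factors and liver specification, 4 were higher and 1 lower (median 0.06), a share near the 11.7% of all genes called in either direction. The hepatocyte nuclear factor gene hnf4a (9.53 ± 0.675 and 10.99 ± 0.158 CPM), prox1a (45.5 ± 2.35 and 40.9 ± 1.29 CPM) and hhex (2.08 ± 0.638 and 2.17 ± 0.462 CPM) did not pass (edgeR adjusted p = 0.331, 0.213 and 0.911). The nuclear receptor gene nr5a2 fell by 0.56 on the log2 scale, and creb3l3b (0.78), fgf10a (0.52) and cebpd (0.35) rose. Each of these 4 calls ended without at least 4 of the 6 libraries (edgeR adjusted p up to 0.18, 0.147, 0.171 and 0.175), and the list held 0 to 3 higher and 0 to 1 lower genes with 1 library left out, the fewest without mutant replicate 2 or 3.

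**Figure D5:**
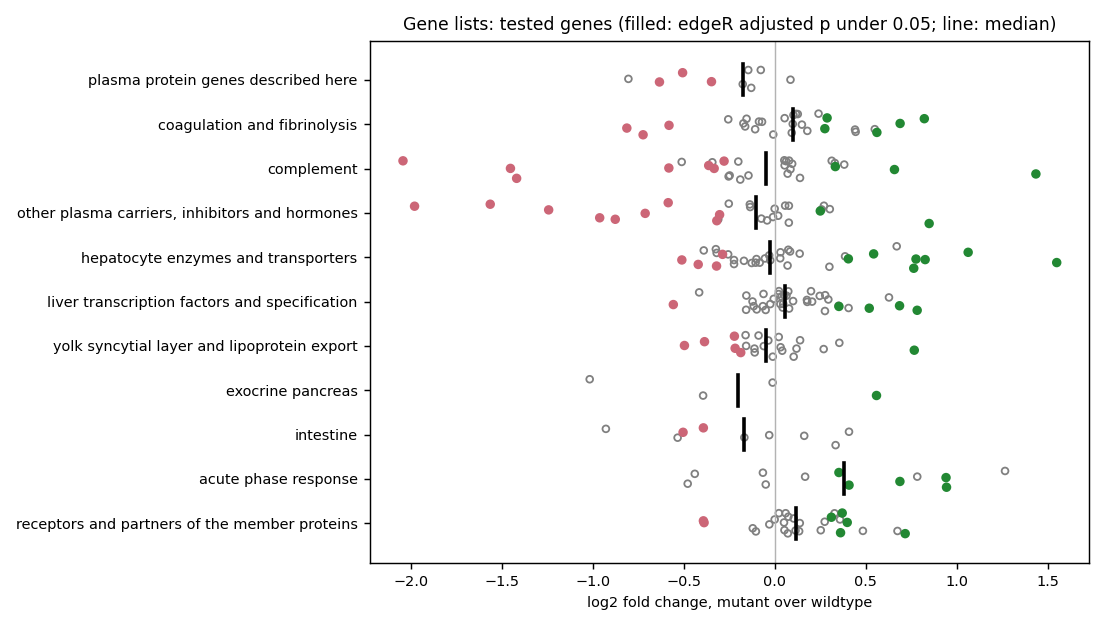
Log2 fold change, mutant over wildtype, of every tested gene of the plasma protein set and of 10 further lists; filled points have an edgeR adjusted p under 0.05 (green higher, red lower), and the black line is the median. The plasma protein set has 3 filled points, all below 0, while the hepatocyte enzymes have 7 above and 4 below 0.

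Partners of these proteins were read for transferrin and vitronectin in particular. Of 3 transferrin receptor genes, tfr1a and tfr1b rose, tfr1b from 33.2 ± 0.674 to 42.6 ± 1.18 CPM (edgeR adjusted p = 0.00365, with a log2 fold change of 0.36 and an SE of 0.07) and tfr1a by 0.37, as did the ferritin heavy chain gene fth1a, for iron storage, from 562 ± 80.7 to 742 ± 18.4 CPM. The third receptor gene, tfr2, named after its values were seen, measured 1.37 ± 0.439 and 1.45 ± 0.102 CPM with overlapping groups and did not pass (edgeR adjusted p = 0.928, log2 fold change 0.08, 95% interval -0.68 to 0.83). The integrin gene itgav, for the alpha subunit of vitronectin receptors, rose by 0.31 on a row with non-whole counts (adjusted p = 0.012; 0.0632 without mutant replicate 1 and 0.0677 without mutant replicate 2). Further genes of this list were named after their values were seen. Of these, aco1 and thrb were called lower (both -0.39, edgeR adjusted p = 0.0144 and 0.0164). Of the other thyroid hormone receptor genes, thraa was called higher (log2 fold change 0.72, edgeR adjusted p = 0.0431). The receptor gene thrab did not pass (log2 fold change 0.12, edgeR adjusted p = 0.685). The genes ireb2, slc11a2 and slc40a1 did not pass (0.893, 0.886 and 0.431). Nor did the integrin beta subunit genes itgb3a (-0.10), itgb3b (0.36), itgb5 (0.05) and itgb6 (0.05). In all, 5 of 27 genes were higher and 2 lower (median 0.12). The higher numbered 3 without mutant replicate 1 or 2, and the lower 0 when wildtype replicate 2 or mutant replicate 3 was left out and 1 when mutant replicate 1 or 2 was.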

How the data were processed

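The authors deposited expected counts for each gene row in each library, with no normalization between libraries. STAR, RSEM, DESeq2 and build danRer11 are named per the submitters' processing notes; versions, annotation and strand setting are not given in the sources used here, so overlapping genes are uncertain. In the table, 18.8% of values are not whole (tolerance 0.005). Columns were mapped to samples by genotype and number. Counts were rounded and tested in R 4.3.3 with edgeR 4.0.16 (filterByExpr, minimum count 10; TMM; robust quasi-likelihood test), with Benjamini-Hochberg adjustment over 20229 rows. CPM use TMM-scaled totals and are compared within a gene, since transcript lengths were not used. The standard error is the log2 fold change over the root of the F statistic. Sums of rows that share reads were sought as values adding up to whole numbers (tolerance 0.011). Count intervals cover counting error only. The fit was tested on simulated data. DESeq2 1.42.0 and limma 3.58.1 were alternatives.

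The members and the 10 gene lists were chosen with earlier results of these data known. Named are the members, dnajc21, fabp10a, liver transcription factors set by the rule, up to 4 called genes per list by adjusted p, and genes among the 5 closest to the mean member profile; other names are marked. Some genes that this rule names are not reported here. Names and neighbours come from the RefSeq table of GRCz12tu, where all 10 members were found. Rows with a repeated symbol were left out of lists.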

Additional observations from a re-analysis of the deposited data

How the results depend on the processing

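The calls of tfa, vtnb and serpina1l and of the summed vitronectin and alpha-1-antitrypsin rows held under every alternative run, namely 3 other scalings, 2 other filters, a block for the replicate number, no robust weights, DESeq2, limma-voom and each library left out; over these, tfa ranged from -0.39 to -0.28, vtnb from -0.64 to -0.62 and serpina1l from -0.57 to -0.43. No other member was called under any of them. With 1 library left out, vtna ranged from -0.19 to -0.15, serpina1 from -0.17 to -0.09, fga from -0.12 to 0.003, fgb from 0.02 to 0.20, fgg from -0.19 to -0.09 and hpxa from -1.08 to -0.51, members called lower stayed at 3, and the log2 ratio of group means of the summed members (-0.27) from -0.32 to -0.23. Without rows with decimals, an alternative added after seeing the data that removes serpina1l itself, 2 members were called lower.

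Over all genes, DESeq2 called 780 higher and 727 lower against 1184 and 1188, and with 1 library left out there were 615 to 1376 higher and 627 to 1282 lower, the fewest without mutant replicate 2; the cause was not tested. Replicate numbers did not pair the samples (correlations of same-numbered deviations -0.05, -0.003 and 0.02), and with the replicate block, edgeR called 1223 higher, 1247 lower and 3 members lower, and tfa, vtnb and serpina1l stood at -0.35, -0.63 and -0.51.

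DESeq2 called 3 clotting genes higher and 1 lower, 0 carriers higher, 1 liver transcription factor higher and 0 lower, and 0 pancreas genes higher. Limma-voom called 0 liver transcription factors higher, 0 lower, and 3 yolk syncytial layer genes lower. With 1 library left out, higher and lower genes numbered 2 to 4 and 1 to 2 for clotting, 3 to 4 and 4 to 8 for complement, 0 to 3 and 7 to 10 for carriers, 4 to 7 and 1 to 5 for hepatocyte enzymes, 0 to 3 and 0 to 1 for liver transcription factors, 1 to 2 and 2 to 5 for the yolk syncytial layer, 0 to 1 and 0 for pancreas, 0 and 2 for intestine, 3 to 7 and 0 for the acute phase, and 3 to 7 and 0 to 2 for partners; fewer samples enter these fits. At this depth hpxa, with 9 to 36 counts, and ttr cannot show differences of the size seen in tfa.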

Other observations

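Genes of the acute phase, in which the liver changes its output of plasma proteins under inflammatory signals, were read beside the plasma protein genes. Of 25 genes listed, 12 were tested, all for signalling, transcription or itaconate synthesis. The genes of this list for acute phase plasma proteins, such as saa, crp, hp and hamp, were not among those tested. Plasma protein genes tested above, among them the fibrinogen chains and the complement genes, are not part of this list. Of the 12, 5 were higher in mutants and 0 lower by edgeR, where 5.85% of all genes were called higher. Limma-voom and DESeq2 also called 0 lower. An unadjusted edgeR p under 0.05 was reached by 6 genes, and the share of all genes under that threshold was not counted. The median log2 fold change was 0.38 against -0.006 over all genes. The gene irg1l, for an enzyme of itaconate synthesis, rose from 12.8 ± 1.17 to 24.7 ± 3.61 CPM (SD, n = 3; edgeR adjusted p = 6.21e-05, with a log2 fold change of 0.94 and an SE of 0.12). The cytokine feedback inhibitors socs3a and socs3b rose from 4.44 ± 0.338 to 8.57 ± 1.94 CPM and from 11.7 ± 2.19 to 19.0 ± 4.00 CPM, and il6st, for the shared receptor chain of the interleukin 6 family, from 33.4 ± 3.23 to 44.5 ± 1.05 CPM. Of the 12, 4 had a negative log2 fold change and did not pass. They were the effector stat3 (-0.05, edgeR adjusted p = 0.795), acod1 (-0.48, 0.538), il6r (-0.44, 0.245) and cebpb (-0.06, 0.690). The higher genes numbered 3 when wildtype replicate 1, wildtype replicate 3, mutant replicate 2 or mutant replicate 3 was left out, and the socs3b call ended without each of these libraries (edgeR adjusted p of 0.0839 to 0.105). The genes stat3, acod1, il6r and cebpb were named after their values were seen.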
